A study of Mus musculus with 2 samples.

Results

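The T-box factors of heart development were taken as 8 genes, Tbx1, Tbx2, Tbx3, Tbx4, Tbx5, Tbx15, Tbx18 and Tbx20, and their Isl1 peaks as the entries of the embryo peak list whose gene symbol is one of these names. The list gave 32 of its 48295 peaks to 7 of the 8 genes, out of 12972 genes of any kind that received a peak. The peaks come from chromatin immunoprecipitation followed by sequencing (ChIP-Seq) with an antibody to Isl1 on the cardiogenic mesoderm and heart region of C57BL/6 mouse embryos between E8.25 and E9, for which the tissue of 60 to 80 embryos was pooled. There is 1 peak list and no second group, since the input chromatin that was also sequenced was not analysed here. The list holds positions on the mm9 genome, the distance to the closest transcription start site (TSS) and the gene of that TSS, but no height, enrichment, p-value or read number. Depth is therefore unknown, no replicate error can be given for any peak, and counts are reported without a test. Intervals cover counting error only.

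T-box genes encode transcription factors that share a DNA-binding domain named after the gene T (Brachyury), and they act in the heart as both activators and repressors. Tbx5 and Tbx20 act in chamber myocardium, Tbx2 and Tbx3 repress chamber genes in the atrioventricular canal and conduction system, Tbx1 acts in the pharyngeal and outflow tract progenitors of the second heart field, and Tbx18 marks the sinus horns and the epicardium. Tbx4 is best known from the hindlimb and lung, and Tbx15, a close relative of Tbx18, from skin and skeleton. Isl1 is a LIM homeodomain factor of second heart field progenitors, and homeodomain proteins recognize sites with the core TAAT.

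The sequences at the centres of 9 of the 32 peaks are shown first, because most centres hold one kind of sequence and the exceptions are few. The windows are 201 bp wide, centred on the peak midpoint and written on the forward strand of mm9. Capitals mark the longest uninterrupted stretch of purines (A and G) or pyrimidines (C and T) where it reached 25 bases, called a run below. In the windows with no such run, capitals mark TAAT or its reverse complement. The first 4 windows hold the closest of the peaks that the list gave to Tbx3, Tbx5 and Tbx20, and a Tbx2 peak.
Tbx3 peak 11.3 kb upstream (chr5:120109484-120109684): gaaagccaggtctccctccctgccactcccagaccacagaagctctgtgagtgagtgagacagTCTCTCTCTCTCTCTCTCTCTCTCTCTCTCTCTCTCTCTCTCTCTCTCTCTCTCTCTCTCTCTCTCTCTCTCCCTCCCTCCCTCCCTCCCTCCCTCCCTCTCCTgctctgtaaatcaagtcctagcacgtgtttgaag
Tbx5 peak 17.9 kb upstream (chr5:120266667-120266867): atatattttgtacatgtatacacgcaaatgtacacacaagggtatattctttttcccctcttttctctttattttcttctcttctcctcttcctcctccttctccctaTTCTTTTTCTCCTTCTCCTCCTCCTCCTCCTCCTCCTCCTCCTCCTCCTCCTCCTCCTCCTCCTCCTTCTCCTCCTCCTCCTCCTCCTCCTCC
Tbx20 peak 110 kb upstream (chr9:24688825-24689025): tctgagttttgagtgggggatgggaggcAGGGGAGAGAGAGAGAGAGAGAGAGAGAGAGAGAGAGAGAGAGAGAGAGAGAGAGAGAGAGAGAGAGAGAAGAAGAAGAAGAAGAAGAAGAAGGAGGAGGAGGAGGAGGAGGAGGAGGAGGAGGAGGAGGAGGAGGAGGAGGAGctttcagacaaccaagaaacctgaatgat
Tbx2 peak 21.7 kb downstream (chr11:85667691-85667891): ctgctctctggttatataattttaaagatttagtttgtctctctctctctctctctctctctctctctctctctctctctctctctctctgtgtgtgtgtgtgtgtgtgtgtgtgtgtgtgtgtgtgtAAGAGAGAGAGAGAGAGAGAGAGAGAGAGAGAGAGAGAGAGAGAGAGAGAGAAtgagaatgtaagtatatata

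The other 5 windows had no run. The Tbx2 window is shown from the first base of the coding sequence onwards.
Tbx2 peak 0.455 kb downstream (chr11:85646609-85646672): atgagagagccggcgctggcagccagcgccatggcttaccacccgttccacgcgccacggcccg
Tbx5 peak 95.7 kb downstream (chr5:120380231-120380431): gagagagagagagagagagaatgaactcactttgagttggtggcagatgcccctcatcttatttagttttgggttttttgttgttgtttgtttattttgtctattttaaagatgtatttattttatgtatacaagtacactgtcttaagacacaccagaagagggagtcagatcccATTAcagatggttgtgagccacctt
Tbx18 peak 85.3 kb upstream (chr9:87711310-87711510): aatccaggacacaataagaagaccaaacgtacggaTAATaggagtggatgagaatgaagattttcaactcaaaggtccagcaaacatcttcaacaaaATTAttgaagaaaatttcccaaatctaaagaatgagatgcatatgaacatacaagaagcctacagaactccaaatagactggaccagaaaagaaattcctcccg
Tbx18 peak 146 kb upstream (chr9:87771903-87772103): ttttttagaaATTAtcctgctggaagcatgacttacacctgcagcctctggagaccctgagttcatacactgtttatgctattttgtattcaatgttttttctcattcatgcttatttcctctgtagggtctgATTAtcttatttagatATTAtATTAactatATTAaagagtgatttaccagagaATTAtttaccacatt
Tbx20 peak 128 kb upstream (chr9:24706400-24706600): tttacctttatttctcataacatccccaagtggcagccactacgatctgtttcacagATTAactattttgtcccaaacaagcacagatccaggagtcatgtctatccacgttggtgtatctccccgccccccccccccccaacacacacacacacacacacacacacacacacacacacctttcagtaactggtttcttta

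Isl1 peaks were assigned to 7 of the 8 genes, and Tbx4 was the exception. Across 22219 protein-coding genes of the GENCODE annotation, 45.5% had at least 1 peak under the same symbols, and 54.8% when peaks went to the closest protein-coding TSS, by which the same 7 genes had one. The latter share rose with the length of sequence closest to a gene among protein-coding genes. In the size class of Tbx2 it was 29.9%, in that of Tbx1 66.9%, and in that of Tbx4 and Tbx20 89.1%. For Tbx5 and Tbx15 it was 98.8% and for Tbx3 and Tbx18 99.4%, so 7 of 8 is not read as an excess. The number of peaks ranged from 1 for Tbx1 and Tbx3 through 3 for Tbx2, Tbx15 and Tbx20 to 10 for Tbx5 and 11 for Tbx18. Tbx5 and Tbx18 together held 21 of the 32 peaks. At least 11 peaks were given to 2.89% of the protein-coding genes, at least 10 to 3.39% and at least 3 to 17.8%. Placed against protein-coding genes only, 26 of the 32 peaks were intergenic, 5 lay in an intron and 1 overlapped an exon. Intergenic here means outside protein-coding genes, and the same split over all peaks was not counted. The median distance to the TSS was 90.5 kb, against 58.8 kb for all peaks. Only 3 of the 32 peaks (9.38%, 95% Wilson interval 3.24 to 24.2%) lay within 10 kb of the TSS, and 15.9% of all peaks did, so the share over all peaks is inside the interval. Within 100 kb lay 17 of the 32 (53.1%, interval 36.4 to 69.1%) and 62.5% of all peaks. Peaks fell upstream and downstream in equal number, 16 of 32 upstream (50.0%, interval 33.6 to 66.4%), beside 47.5% of all peaks. Their widths ranged from 290 to 713 bp with a median of 462 bp, and 16 of 32 exceeded the 466 bp that was the median of the list, as did 49.9% of all peaks.

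**Figure D1:**
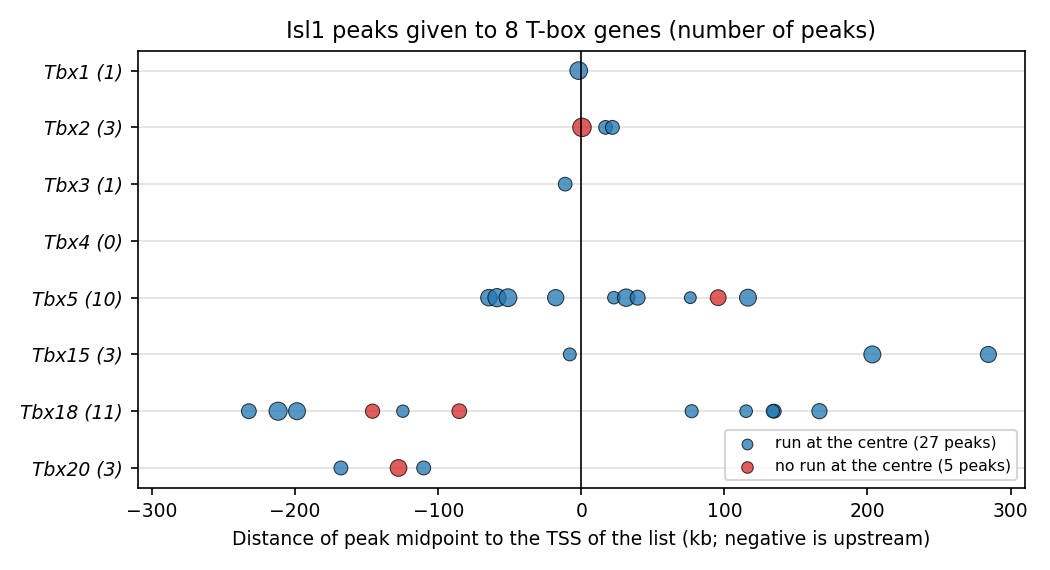
Each point is 1 Isl1 peak, placed by the distance of its midpoint to the TSS used by the list in kb (negative is upstream) on the row of the gene it was given to; larger points are wider peaks, and colour shows whether a purine or pyrimidine run of at least 25 bases lay at the centre. All peaks given to Tbx1, Tbx2 and Tbx3 lie within 21.7 kb of the TSS, and those of Tbx5 lie to both sides of it. The closest peaks given to Tbx18 and Tbx20 are 77.1 and 110 kb away.

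Tbx2 had the only peak of the group within 1 kb of a TSS, 1 of 32 (3.12%) beside 2.58% of all peaks. Tbx2 is a repressor of chamber differentiation, transcribed from the forward strand of chromosome 11 between 85646053 and 85655450. Its closest peak, from 85646216 to 85646929, had its midpoint 0.455 kb downstream of the TSS used by the list and overlapped the first exon, including the start of the coding sequence printed above. At 713 bp it was also the widest of the 32 peaks. The centre window was 82.6% G and C, the highest value among the T-box peaks, whose median was 49.3%, and its longest purine or pyrimidine stretch was 8 bases. The other Tbx2 peaks lay 16.9 kb and 21.7 kb downstream, with runs of 193 and 53 bases at their centres. The nearer one overlapped an intron of the predicted gene Gm11444 and the farther one was intergenic. A further peak 4.22 kb upstream of the annotated Tbx2 TSS was given to the non-coding RNA gene 2610027K06Rik.

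Tbx1 had 1 peak on chromosome 16, 1.82 kb upstream of the TSS used by the list. Tbx1 runs on the reverse strand from 18588113 to 18581806, and GENCODE puts its start 2651 bp further downstream, which makes the distance 4.47 kb. The peak was 647 bp wide and intergenic. Its run reached 251 bases over the whole peak. The stretch between the flanking genes Gp1bb and Gnb1l was 53.6 kb long and held no other peak.

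Tbx5 had 10 peaks on both sides of and inside the gene. It activates chamber genes together with other cardiac factors, and it lies on chromosome 5 from 120284672 to 120335227. Upstream peaks lay 64.6, 58.9, 51.3 and 17.9 kb from the TSS. Of the 6 downstream peaks, those at 22.8, 31.3 and 39.4 kb were in introns of Tbx5, and those at 76.2, 95.7 and 116 kb were in the intergenic sequence behind the gene. The array thus covered 182 kb from the first to the last peak, with gaps of 5.65 to 40.7 kb between neighbours. Tbx5 peaks were 290 to 688 bp wide, and 8 of 10 exceeded the median width of the list. All but the peak at 95.7 kb had a run at the centre, between 46 and 180 bases long, and that peak had a run of 73 bases nearer its edge.

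Tbx18, which acts in the sinus horns and epicardium, had the most peaks, and none was near the gene. It lies on the reverse strand of chromosome 9 from 87597635 to 87626095, and no peak fell in the gene itself. Downstream peaks lay 77.1, 115, 134, 135 and 166 kb from the TSS. The pair at 134 and 135 kb had midpoints only 0.992 kb apart. Upstream peaks lay 85.3, 125, 146, 199, 212 and 232 kb away, so that a stretch of 162 kb around the gene held no peak. How often such stretches occur elsewhere was not counted. Widths ranged from 317 to 681 bp, and 3 of 11 exceeded the median of the list. Runs of 70 to 135 bases lay at 9 of the 11 centres. The peak at 146 kb had a stretch of only 9 bases at its centre and 6 matches to TAAT, the most of any T-box peak, with a run of 81 bases outside the centre window.

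Tbx20, an activator and repressor in chamber myocardium, is transcribed from the reverse strand of chromosome 9 between 24527648 and 24578746. All 3 of its peaks lay upstream, at 110, 128 and 168 kb, in intergenic sequence. They were 403, 580 and 400 bp wide. The outer peaks had runs of 144 bases each at the centre, and the peak at 128 kb had none anywhere. A further peak, from 24533464 to 24533860, lay in an intron of Tbx20 itself, 45.1 kb from its TSS, and was given to Dpy19l2, whose TSS was closer at 32.9 kb. It held a run of 167 bases. Tbx15, on the forward strand of chromosome 3 from 99044304 to 99158182, had peaks 8.06 kb upstream and 203 and 284 kb downstream. The upstream peak lay in an intron of a longer annotated Tbx15 transcript. The downstream peaks were in the gap of 531 kb before Spag17, and 4 further peaks between Tbx15 and Spag17 were given to Spag17. In the centre window, which holds at most 201 bases, the downstream Tbx15 peaks had runs of 201 and 197 bases, and over the whole peak of 370 and 268.

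The neighbouring genes Tbx3 and Tbx5 share one interval on chromosome 5, in the same orientation, with the first Tbx3 TSS at 120120678 and the Tbx5 TSS at 120284672, 164 kb apart. Between them lay 8 Isl1 peaks, or 48.8 per Mb (95% exact Poisson interval 21.1 to 96.1), and the genome had 18.9 per Mb. The 4 peaks closest to Tbx5 were given to it and the other 4, at 33.6, 45.5, 69.4 and 83.8 kb from the first Tbx3 TSS, to Tbx3os2, a non-coding RNA gene named for its place opposite Tbx3. None of the 8 was given to Tbx3. The only peak that the list gave to Tbx3, a repressor needed for the conduction system, lay 11.3 kb upstream, from 120109390 to 120109779, and was 389 bp wide with a run of 104 bases.

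When each peak was instead assigned to the closest TSS of a protein-coding gene, Tbx3 had 22 peaks and Tbx5 kept 10. Of the 22 peaks, 21 had been given to non-coding RNA genes by the list. These were 8 to Gm7538, 6 to AW549542, 4 to Tbx3os2, 2 to Gm16063 and 1 to 1700081H04Rik, at 23.6 to 527 kb from the closest Tbx3 TSS. All 22 had a run at the centre, and their widths ranged from 318 to 821 bp. Over the whole list, 18.7% of the peaks were given to a non-coding RNA. The single peak of Tbx3 in the list thus depended on which transcripts counted as genes, and the number of Tbx5 did not.

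**Figure D2:**
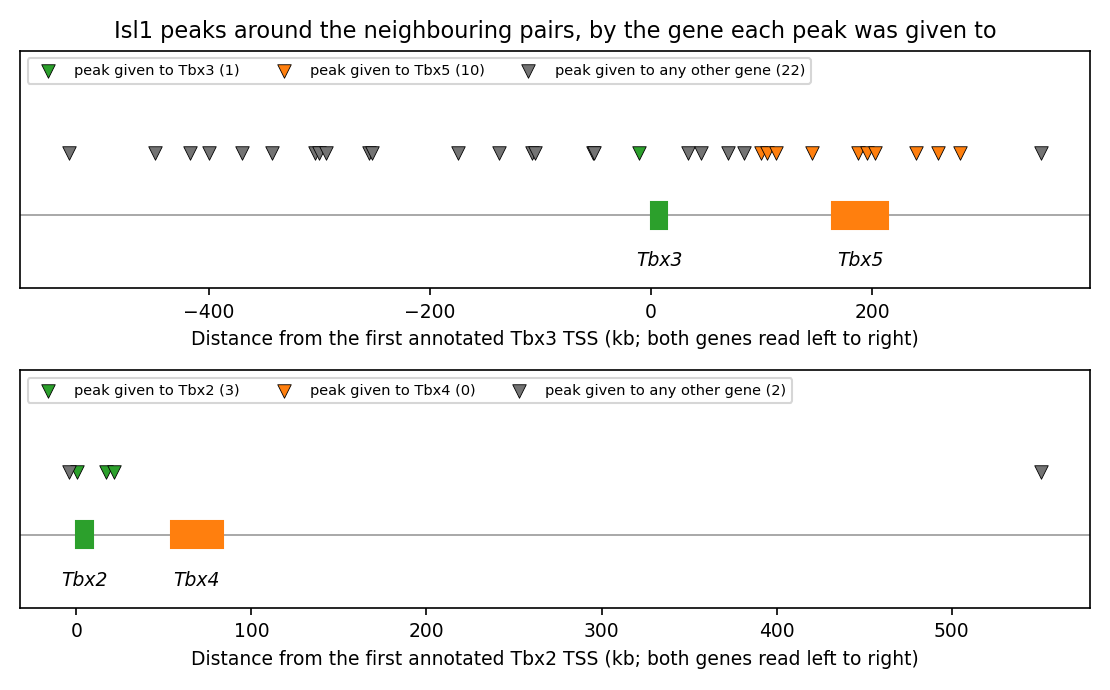
Isl1 peaks (triangles) around Tbx3 and Tbx5 (upper panel) and around Tbx2 and Tbx4 (lower panel), by distance in kb from the first annotated TSS of the left gene, with boxes for the genes and colour for the gene to which the list gave each peak. In the upper panel 22 peaks were given to neither gene, 10 to Tbx5 and 1 to Tbx3, and in the lower panel no peak lies between 21.7 and 551 kb.

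Tbx2 and Tbx4 are arranged in the same way on chromosome 11, 53.9 kb apart and both on the forward strand. The 3 peaks between their TSSs were all nearer to Tbx2 and were given to it, at a density of 55.7 per Mb (interval 11.5 to 163). Tbx4, from 85699924 to 85729599, received none. The peak closest to its TSS was the Tbx2 peak 32.1 kb upstream. On the other side the first peak, given to Med13, was 497 kb away. No peak was listed on chromosome 11 from 85667993 to 86196451, a stretch of 528 kb that also covers Brip1. How often stretches of this length lack a peak elsewhere was not counted, and within 500 kb to either side of its TSS Tbx4 had 11 peaks. For the stretch of 528 kb, the list leaves a further question open. Whether reads were missing from this stretch or present below the threshold of the peak caller cannot be seen in a list of positions.

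A rule that assigns peaks to the closest TSS gives more peaks to a gene that stands alone, so the counts were set beside the length of sequence closest to each gene among protein-coding genes. For Tbx5 this stretch was 218 kb with 45.9 peaks per Mb (interval 22.0 to 84.4), and for Tbx3 642 kb with 34.3 (interval 21.5 to 51.9). Genes with stretches of 200 to 400 kb had 20.1 peaks per Mb and those of 400 kb or more had 17.7, and both values lie under the 2 intervals. Tbx18 had the most peaks by name, but with 536 kb its density was 20.5 per Mb, and the interval of 10.2 to 36.7 enclosed the 17.7 of its size class. Tbx15 with 8.06 per Mb (interval 1.66 to 23.6), Tbx20 with 10.2 (interval 1.23 to 36.8) and Tbx1 with 16.2 (interval 0.410 to 90.2) had intervals that enclosed the values of their size classes, 20.1, 19.0 and 17.6. The Tbx20 value counts 2 peaks, since its peak at 168 kb was closest to the TSS of the protein-coding gene Gm10181. Tbx2 had only 24.3 kb, with Gm11444 lying 4.84 kb behind it. The 2 peaks in this stretch give 82.5 per Mb, and the interval of 9.99 to 298 enclosed the 16.5 of its size class. The 181 kb closest to Tbx4 held 0 peaks, and a bound of 3 counts allows up to 16.6 per Mb. Its size class of 100 to 200 kb had 19.0 per Mb, and 89.1% of the genes in it had at least 1 peak. That bound is one-sided and therefore narrower than the intervals of the other genes, so no difference from the class is read from it. Within 500 kb of the TSS, a window that takes no account of genes, Tbx3 had 35 peaks and Tbx5 34, over windows that overlap. At least 34 peaks in such a window were found for 1.70% of protein-coding genes, whose median was 17.0. The other T-box factors had 10 to 20, with Tbx18 at 20, and 36.9% of genes had at least 20. Because Tbx3 and Tbx5 were counted over shared sequence, they are not independent.

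**Figure D3:**
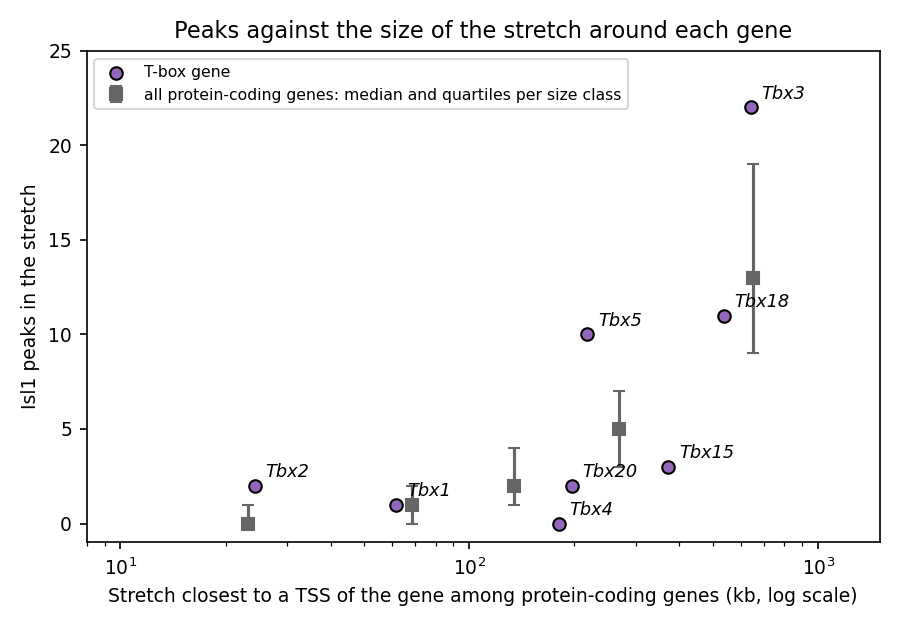
Number of Isl1 peaks in the stretch closest to each T-box gene among protein-coding genes (points) against the length of that stretch in kb on a log scale; squares with bars give the median and quartiles of all protein-coding genes in 5 size classes. Tbx3 with 22 peaks, Tbx5 with 10 and Tbx2 with 2 lie above the upper quartiles of 19.0, 7 and 1, Tbx18 with 11 lies between the quartiles of 9 and 19.0, and Tbx4 lies at 0.

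A run of purines or pyrimidines lay at the centre of 27 of the 32 T-box peaks (84.4%, 95% Wilson interval 68.2 to 93.1%). In the whole list 94.1% of the centres held one, above the upper end of that interval, and in windows 1 kb to either side 3.96%. Within the entire peak the numbers were 29 of 32 (90.6%, interval 75.8 to 96.8%) and 96.3%, which is inside the interval. The median length at the centre was 90.0 bases for T-box peaks and 92.0 for all peaks. For each of the 29 runs, periods of 1 to 8 bases were tried, and the shortest that matched about as well as the best was taken. It was 2 bases for 8 runs, 3 for 4, 4 for 5, 5 for 4, 6 for 5 and 8 for 3. Some runs repeated only loosely, with 69.9% of bases matching in a Tbx15 peak. Periods over all peaks were not counted. Repeats of CT or GA over at least 4 units lay at 16 of the 32 centres (50.0%), against 56.1% of all peaks. Whether the runs took part in the enrichment was not tested.

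**Figure D4:**
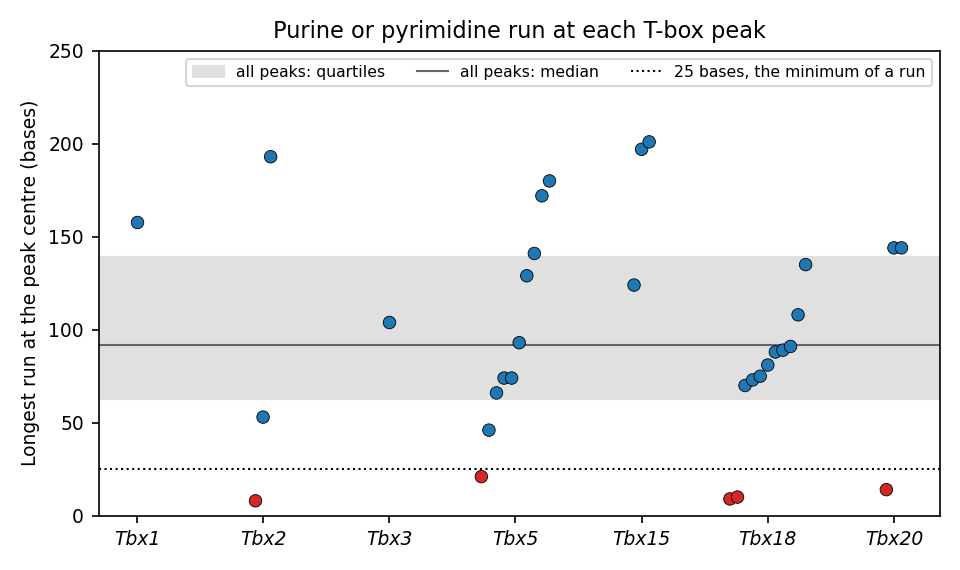
Longest purine or pyrimidine stretch within 100 bp of the midpoint, in bases, for each peak of the 7 genes with peaks, with the median (92.0) and quartiles (63 and 139) of all 48295 peaks behind. The 5 peaks without a run, of Tbx2, Tbx5, Tbx18 and Tbx20, lie under the dotted line at 25 bases.

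The 5 peaks with no run at the centre differed among themselves. All 18 words of 30 bases, taken every 10 bases along the window, occurred once in mm9 for the exonic Tbx2 peak and for the Tbx18 peak 146 kb upstream. The Tbx18 peak 85.3 kb upstream was repetitive: 1 of its 18 words occurred once, and the median word occurred 1997 times. For the Tbx5 peak at 95.7 kb 14 words and for the Tbx20 peak at 128 kb 15 words occurred once. Reads from sequence with many copies cannot be placed with certainty, and how the mapping treated them is not seen in the list. The Tbx2, Tbx18 and Tbx20 peaks without a run anywhere were thus 2 of largely single-copy sequence and 1 of repeated sequence.

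Matches to short motifs were counted on both strands of the same windows. TAAT, the homeodomain core, was present at 13 of 32 T-box centres (40.6%, interval 25.5 to 57.7%), at 35.6% of all peak centres and at 73.6% of windows 1 kb away. Over whole peaks it was found in 25 of 32 (78.1%) and in 82.8% of the list. The Tbx18 peaks held it at 7 of 11 centres and those of the other genes at 6 of 21, a split noticed after the values were seen. The T-box core motif, searched as GGTGTG or GTGTGA, which overlap each other, lay at 5 of 32 centres (15.6%), at 15.3% of all peaks and at 19.6% of windows 1 kb away. CANNTG, the E-box of Hand and other helix-loop-helix factors, lay at 14 of 32 (43.8%, interval 28.2 to 60.7%) against 30.2% of all peaks and 65.4% of windows 1 kb away. CACTT, the Nkx2-5 core, lay at 5 of 32 (15.6%) against 17.0% and 39.3%, and GATAA, the core of Gata factors, at 3 of 32 (9.38%) against 11.7% and 29.9%. Each share over all peak centres fell inside the interval of the T-box peaks, and all 5 motifs were more frequent 1 kb away from the peaks of the list than at their centres. Each motif mixes purines and pyrimidines and so cannot lie inside a run. Runs lay at 94.1% of all centres and in 3.96% of windows 1 kb away, so nothing about the motifs is read from that difference. These counts are of letters and not of binding sites.

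**Figure D5:**
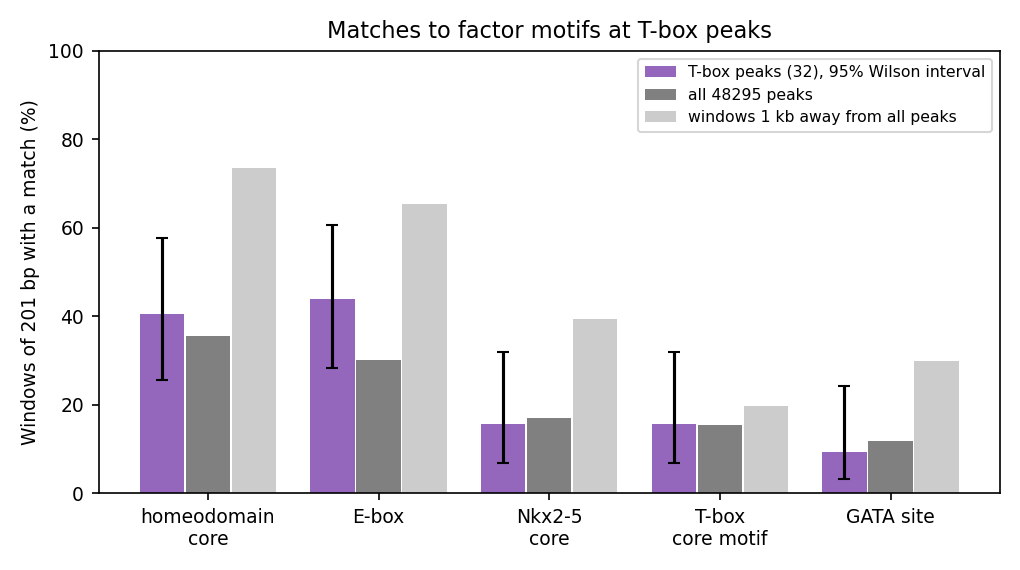
Share of windows of 201 bp with at least 1 match on either strand, in percent, for the homeodomain core TAAT, the E-box CANNTG, the Nkx2-5 core CACTT, the T-box core motif and GATAA, at T-box peaks (bars with 95% Wilson intervals), at all peaks and 1 kb away from all peaks. The bars of all peaks lie inside the intervals of the T-box peaks, and the bars 1 kb away are the highest for each motif. None of the motifs can lie inside a run, and runs are far more frequent at the centres than 1 kb away.

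Among the 9 other T-box genes of the mouse, 6 had a peak and the total was 12, with 4 peaks for Mga and none for Tbx6, Tbx10 or Tbx22. Of 20 cardiac factors that act with T-box proteins, 15 had a peak, from Isl1 itself with 33 through Nkx2-5 with 4 down to 0 for Gata4 and Gata5. Of 12 genes described downstream of T-box factors in the heart, 8 had a peak, and Nppa and Hcn4 had none. By the same symbols 45.5% of protein-coding genes had a peak. The median stretch closest to a gene was 92.6 kb for the other T-box genes, 327 kb for the cardiac factors and 150 kb for the downstream genes. In the size classes of these medians, 66.9, 98.8 and 89.1% of genes had a peak by the closest protein-coding TSS. The stretches varied widely within a list, from 5.52 kb for Foxh1 to 1230 kb for Mef2c among the cardiac factors. The share at a median is therefore not what a whole list would be expected to have, and no excess or lack is read from it. The median number of peaks per gene was 3 for the 8 T-box factors, 1.00 for the other T-box genes, 3 for the cardiac factors and 2.00 for the downstream genes. Per Mb of the sequence closest to the genes of each list the densities were 22.9, 20.0, 26.7 and 21.5. Genes with a peak within 10 kb of the TSS numbered 3 of 8, 2 of 9, 8 of 20 and 6 of 12, and 22.6% of protein-coding genes had such a peak. The peak list holds binding only. Expression of the T-box genes was not analysed here, although the authors also report RNA-Seq of Isl1 knockout and hypomorphic embryos.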

How the data were processed

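Isl1 ChIP-Seq used pooled cardiogenic regions of mouse embryos, crosslinked with 1% formaldehyde and sonicated to 200 to 500 bp. Per their methods, the authors aligned reads with bowtie2 (mm9). Picard 1.136 served to discard PCR duplicates and MACS14 to call peaks, of which those in ENCODE blacklisted sequence were dropped. Each remaining peak carries the RefSeq accession of its closest TSS. In the file the authors deposited, values are genome positions and signed distances in bp. The methods describe intersecting the peaks of replicates, and the file does not say whether its 1 list is that intersection. Of the 2 samples, the input was not analysed here.

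A second header line (1 line) was skipped, and peaks were selected by gene symbol. Sequence came from the NCBIM37 genome, the assembly of mm9, with starts read as 1-based, and genes from GENCODE (version M1), in which protein-coding transcripts gave 22219 genes. Peaks were also assigned to the closest protein-coding TSS. Shares have Wilson and densities exact Poisson intervals, and a count of 0 was bounded by 3 counts. Run and motif searches were tested on simulated data. No test across features was made. Genes named are the 8 members, their flanking genes, the non-coding genes that took peaks beside them, and 3 lists of T-box, cardiac and downstream genes. Some sequences and list genes are not reported here. The members and lists were chosen with earlier results of these data known. Tables were handled in pandas 2.3.3 and numpy 2.4.6 under Python 3.11.15, sequence in pysam 0.24.0, intervals in scipy 1.17.1 and plots in matplotlib 3.10.9.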

Additional observations from a re-analysis of the deposited data

How the results depend on the processing

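Of the alternatives, 10 values for the group as a whole stayed close to the reported count or inside its interval, and 8 did not. The 7 genes with a peak fell to 3 with a limit of 10 kb to the TSS. They fell to 4 with peaks that held no run at the centre, which was added after seeing the data. The share of all genes that keep a peak under this filter was not counted, so the 4 are not read as many or few. The 32 peaks became 51 with the closest protein-coding TSS, through the non-coding genes around Tbx3. They became 16 with peaks wider than the median, 17 within 100 kb, 3 within 10 kb and 5 without a run at the centre. Filters by width, distance or run keep only a part of the peaks, so under them the counts could not rise. Such filters are among the 8 values that did not stay close. Of all peaks, 49.9% were wider than the median, 62.5% lay within 100 kb, 15.9% lay within 10 kb and 94.1% had a run at the centre. The share of peaks with TAAT rose from 40.6% at the centre to 78.1% in the whole peak, where 82.8% of all peaks held it, because more sequence was searched. For single genes, 8 of the alternative values moved, among them Tbx3, with 22 peaks by the closest protein-coding TSS and 0 by width, and the density of Tbx2, which was 82.5 per Mb in the stretch closest to it and 10.0 within 500 kb to either side. The list has no height, so a stricter threshold could only be replaced by width, and the depth is unknown. No paired analysis was possible because 1 peak list was analysed.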

Other observations

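Assigning peaks to the closest protein-coding TSS also changed the counts of genes other than the 8 T-box factors, in both directions. Of the 41 genes in the lists of other T-box genes, cardiac factors and downstream genes, 16 had more peaks than by the symbol in the list, 6 had fewer and 19 had the same number. Hand2, a factor of the right ventricle, had 1 peak by the symbol in the list and 19 by the closest protein-coding TSS, Myocd, a coactivator of muscle genes, had 1 and 10, and Mef2c had 8 and 28. In the other direction, Isl1 had 33 and 16 peaks, Gja1, a gap junction gene, 18 and 5, Mycn 11 and 8, Hand1 3 and 0, Hopx 3 and 1, and Tbr1 3 and 2. The genes named with more peaks were chosen after their values were seen, and those with fewer are all 6.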
